A study of Mus musculus with 4 samples.

Results

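The immediate early genes examined here were Fos, Fosb, Jun, Junb, Jund, Atf3, Egr1, Ier2, Zfp36 and Dusp1. They were taken by gene symbol from the expression table of mouse spermatocytes, and all 10 were found among its 53700 genes. All 10 also passed the filter on low counts that left 17766 genes for testing. In the libraries of sorted spermatocytes lacking circSRY, 9 of the 10 rose and 0 fell, and Jun did not pass the test. Of all tested genes, 20.0% rose and 15.0% fell. The libraries also differed in markers of leukocytes and of germ cell stages, whose part in the rise was not tested. The count of 9 became 4 when control replicate 3 was left out. Atf3 had the largest fold change of the 10, and it passed the filter only through the circSRY KO libraries.

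The data were RNA-seq of primary spermatocytes, sorted by Hoechst staining of dissociated testes from 8-wk-old C57BL/6 mice. Control mice were wild type (replicates 2 and 3), and circSRY KO mice (replicates 1 and 2) carried a CRISPR-Cas9 deletion of the splice acceptor upstream of the Sry coding region, which removes the circular RNA made from Sry, the Y-linked sex-determining gene. The deletion is present in every cell of the animal, each group had 2 mice, and the sort was by DNA content and not by a cell surface marker, so each library is a bulk sample of the sorted gate. The libraries held 8045148 to 8839461 expected counts, the read numbers per gene estimated by RSEM. Sry itself was at 0 expected counts in all 4 libraries, where 3 counts correspond to 0.339 to 0.373 CPM (counts scaled to library size), so that gene gave no check of the genotype in these data. A gene was called where edgeR's quasi-likelihood test gave a Benjamini-Hochberg adjusted p under 0.05 and the log2 fold change was 1 or more in either direction. P-values measure only the spread between these libraries, and that spread is estimated for a gene partly from the other tested genes. An exact test on a single gene with 2 libraries against 2 cannot go below p = 0.333.

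Immediate early genes are transcribed within minutes of a stimulus without the need for new protein, through factors that are already present, such as SRF with its ternary complex partners downstream of ERK, and CREB. FOS and JUN family proteins pair through leucine zippers to form the transcription factor AP-1, and their mRNAs are short-lived because AU-rich elements in the 3' UTR recruit decay factors. Growth factors, cytokines, stress and the enzymatic dissociation of tissues are all known to induce them.

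The promoters of 4 members that hold matches to the binding motifs of CREB, SRF or EGR proteins are shown. Fosb, which also holds an EGR motif, is not printed. Entries for 8 of the 10 members were found in the RefSeq promoter table (GRCm38.p6, 250 bases before to 50 after the start), while Egr1 and Ier2 had no entry. The 200 bases before the start are printed 5' to 3' along the gene, with the matched motifs in capitals.
Fos (chr12:85473690-85473889, plus strand): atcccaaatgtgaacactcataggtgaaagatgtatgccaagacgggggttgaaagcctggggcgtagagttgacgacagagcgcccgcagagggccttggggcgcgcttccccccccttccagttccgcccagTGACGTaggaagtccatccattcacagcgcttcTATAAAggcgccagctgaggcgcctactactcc
Atf3 (chr1:191183334-191183533, minus strand): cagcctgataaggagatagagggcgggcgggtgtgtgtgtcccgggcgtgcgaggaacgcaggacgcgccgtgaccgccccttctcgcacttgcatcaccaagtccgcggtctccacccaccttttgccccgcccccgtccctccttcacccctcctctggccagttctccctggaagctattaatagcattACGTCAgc
Zfp36 (chr7:28379229-28379428, minus strand): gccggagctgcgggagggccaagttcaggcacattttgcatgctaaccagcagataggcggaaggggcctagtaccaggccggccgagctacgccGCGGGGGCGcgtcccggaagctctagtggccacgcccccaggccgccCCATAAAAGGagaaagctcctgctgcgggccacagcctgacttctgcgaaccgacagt
Dusp1 (chr17:26508473-26508672, minus strand): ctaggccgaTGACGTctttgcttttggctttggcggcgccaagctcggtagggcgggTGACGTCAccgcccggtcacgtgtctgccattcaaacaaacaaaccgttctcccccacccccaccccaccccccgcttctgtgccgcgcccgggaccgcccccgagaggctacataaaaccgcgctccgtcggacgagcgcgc
The core TGACGT, searched on both strands and overlapping the cAMP response element, was found in Fos (66 bases before the start), in Atf3 (8 bases before the start, as ACGTCA on the printed strand) and in Dusp1 (191, 143 and 141 bases before the start). The Dusp1 matches at 143 and 141 are the 2 strands of 1 palindromic TGACGTCA. The core was held by 3 of 8 member promoters and by 7.51% of the 32851 promoters in the table. The whole cAMP response element TGACGTCA was in 1 of 8, Dusp1, against 1.79% of all promoters. Zfp36 held a CArG box, the SRF motif, 58 bases before its start, against 1.63% of all promoters, and a match to the EGR motif GCGNGGGCG 105 bases before its start. The EGR motif was also in Fosb, so 2 of 8 held it against 5.55% of all promoters. A TATAAA box, searched on the sense strand, lay 33 bases before the start of Fos and began at the start base of Junb, and 8.32% of all promoters held one. The AP-1 motif TGACTCA was in 0 of 8 and in 5.20% of all promoters. Jun and Jund held none of these letters in this window, and a match or its absence is a description of sequence only.

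Of the 3' UTR, the sites of the longer AU-rich element TATTTAT are shown for 7 members, because this element is the sequence that ZFP36, itself a member, binds. Each line gives 23 bases of the sense strand on GRCm39 (GENCODE M39) with the element in capitals.
Fos (chr12:85523880-85523902, plus strand): tttcaattTATTTATtaagatgg
Fosb (chr7:19037254-19037276, minus strand): cccccagcTATTTATccctttcc
Jun (chr4:94937319-94937341, minus strand): cttgtgcaTATTTATaatagcgt
Jund (chr8:71153011-71153033, plus strand): ttccgcccTATTTATgtttctac
Atf3 (chr1:190902538-190902560, minus strand): atattactTATTTATcccagtat
Zfp36 (chr7:28076394-28076416, minus strand): gggcccttTATTTATgacgactt
Dusp1 (chr17:26725136-26725158, minus strand): ctggtcctTATTTATttaacacc
TATTTAT was held by 7 of 10 members (70% against 30.5% of 14323 tested genes with a 3' UTR), and the shorter ATTTA, which it contains, by 9 of 10 (90% against 70.2%). The members' 3' UTRs were the shorter ones, with a median of 794.5 against 1242 bases. Per kilobase they held 1.22 TATTTAT against 0.279 over all tested genes, and 2.44 ATTTA against 1.79. Zfp36 and Dusp1 each held 3 copies of TATTTAT and Fos held 2. Junb and Egr1 had only ATTTA, and Ier2 had neither.

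Over the 10 genes the median log2 fold change was 1.72, against 0.07 over all genes tested, and it was 1.10 without circSRY KO replicate 1. The 9 genes called higher were read against the 20.0% of tested genes called higher in the same fit, and the 0 called lower against 15.0%. By edgeR, 0 members were lower at an unadjusted p under 0.05, and 0 were called lower by DESeq2 or limma. By CPM, both circSRY KO libraries lay above both control libraries for 10 of 10 members, as they did for 37.2% of tested genes. By TPM, which also divides by transcript length, this held for 8 of 10 members and for 29.5% of tested genes, and the exceptions were Jun and Dusp1. In bulk samples, fewer cells of a type and less RNA per cell cannot be told apart, and the same is true of more.

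**Figure D1:**
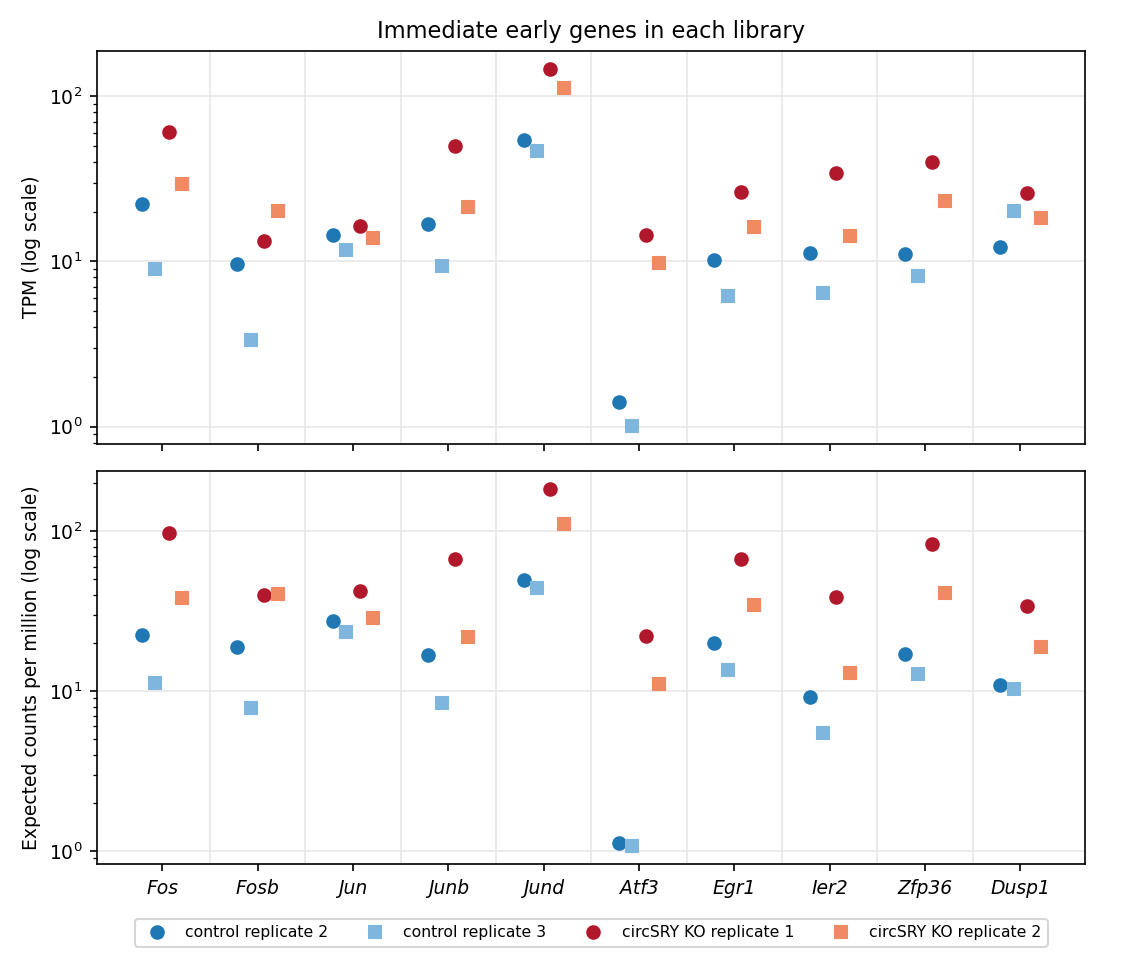
Level of each immediate early gene in each library, as TPM (upper panel) and in CPM (lower panel), both on log scales, with 1 point per library. The circSRY KO points lie above both control points for every gene in the lower panel, and for all but Jun and Dusp1 in the upper panel.

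FOS proteins are the AP-1 subunits that cannot pair with themselves. Fos (12:85520658-85524047 on GRCm39, plus strand, 4 exons) was at 22.3 and 8.96 TPM in control replicates 2 and 3, and at 60.6 and 29.6 TPM in circSRY KO replicates 1 and 2. The groups did not overlap, but control replicate 2 lay closer to circSRY KO replicate 2 than to circSRY KO replicate 1. The group means were 15.6 ± 9.43 and 45.1 ± 21.9 TPM (SD, n = 2), and the log2 fold change was 2.01 ± 0.43 (SE, edgeR adjusted p = 0.00265). Fosb (7:19036621-19043976, minus strand, 4 exons), its relative, was at 9.60 and 3.35 TPM in the control and at 13.3 and 20.2 TPM in circSRY KO spermatocytes. It was the only member whose CPM were not higher in circSRY KO replicate 1 than in replicate 2 (39.7 and 40.7). The log2 fold change of Fosb was 1.59 ± 0.38 (SE, edgeR adjusted p = 0.00528).

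The JUN family supplies the partners of FOS. Jund (8:71151599-71153265, plus strand, 1 exon), often described as the steadily expressed JUN protein, had the highest TPM of the 10 genes in every library. It was at 54.1 and 46.7 TPM in the control and at 147 and 111 TPM in circSRY KO spermatocytes. The control libraries were close to each other and far below both circSRY KO libraries, and the log2 fold change was 1.64 ± 0.33 (SE, edgeR adjusted p = 0.00178). Junb (8:85701113-85705359, minus strand, 1 exon), which can restrain JUN activity, was at 16.8 and 9.35 TPM in the control and at 50.2 and 21.5 TPM in circSRY KO. Its groups did not overlap, but 21.5 TPM in circSRY KO replicate 2 was near the higher control. Its log2 fold change was 1.81 ± 0.47 (SE, edgeR adjusted p = 0.00785).

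Jun (4:94937271-94940459, minus strand, 1 exon), which encodes c-JUN, was the member that did not pass. It was at 14.5 and 11.8 TPM in the control and at 16.4 and 13.8 TPM in circSRY KO, so the groups overlapped. Its log2 fold change was 0.47 ± 0.32 (SE, edgeR adjusted p = 0.271), and it was called in 0 of 15 alternative fits. A p that misses the threshold does not show that Jun was alike in both groups. The library kit is not stated to mark strand, and Jun, Junb, Jund and Zfp36 each overlap an annotated gene on the other strand (Junos, Gm65321, Gm11175 and Gm44710), so reads of these partners could not be told apart from theirs.

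Atf3 (1:190902493-190950241, minus strand, 4 exons) encodes a stress-induced leucine zipper protein of the ATF/CREB family that can pair with JUN proteins. It was at 1.41 and 1.01 TPM in the control, from 9 expected counts in each library. In circSRY KO spermatocytes it was at 14.4 and 9.81 TPM, from 194 and 90 expected counts. It was the lowest of the 10 genes in both control libraries and remained among the lowest in circSRY KO, yet its fold change was the largest of the 10. For Atf3 the log2 fold change was 3.88 ± 0.51 (SE, edgeR adjusted p = 0.000119), above 99.4% of tested genes. Both control libraries lay under the filter's minimum of 1.20 CPM, so Atf3 was tested only because it was high in circSRY KO, and had to be higher. Its log2 fold change ranged from 2.52 to 4.28 over 15 alternative fits, and without the filter it was called as well. Of the other 9 members, each had a control library above that minimum, and 8 of the 9 rose.

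Egr1 (18:34992876-34998049, plus strand, 2 exons) encodes a zinc finger transcription factor induced by ERK signalling. It was at 10.2 and 6.15 TPM in the control and at 26.2 and 16.1 TPM in circSRY KO, with no overlap. Its log2 fold change was 1.58 ± 0.37 (SE, edgeR adjusted p = 0.00424). Ier2 (8:85387960-85389483, minus strand, 1 exon), a small nuclear protein made early after growth factor treatment, was at 11.2 and 6.41 TPM in the control. In circSRY KO spermatocytes it was at 34.4 and 14.3 TPM, with circSRY KO replicate 2 only a little above the higher control. Its log2 fold change was 1.81 ± 0.47 (SE, edgeR adjusted p = 0.00816).

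Zfp36 and Dusp1 encode proteins that shut the response down. Zfp36 (7:28076209-28079710, minus strand, 2 exons) encodes tristetraprolin, which binds AU-rich elements and promotes mRNA decay. It was at 11.1 and 8.19 TPM in the control and at 40.0 and 23.3 TPM in circSRY KO spermatocytes, with a wide gap between the groups. For Zfp36 the log2 fold change was 2.03 ± 0.37 (SE, edgeR adjusted p = 0.000920). Dusp1 (17:26724564-26781102, minus strand) encodes a nuclear phosphatase that inactivates MAP kinases. It had 88 and 87 expected counts in the control and 303 and 155 in circSRY KO, and its log2 fold change was 1.31 ± 0.37 (SE, edgeR adjusted p = 0.0128). By TPM it was at 12.3 and 20.0 in the control and at 26.0 and 18.3 in circSRY KO, so here the groups overlapped. The difference lay in the effective length that RSEM gave Dusp1, which has 10 annotated transcripts. That length was 765 bases in control replicate 3 and 1383, 1512 and 1486 bases in control replicate 2 and circSRY KO replicates 1 and 2. With effective length as an offset in edgeR, the log2 fold change of Dusp1 was 0.68 (adjusted p = 0.240).

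**Figure D2:**
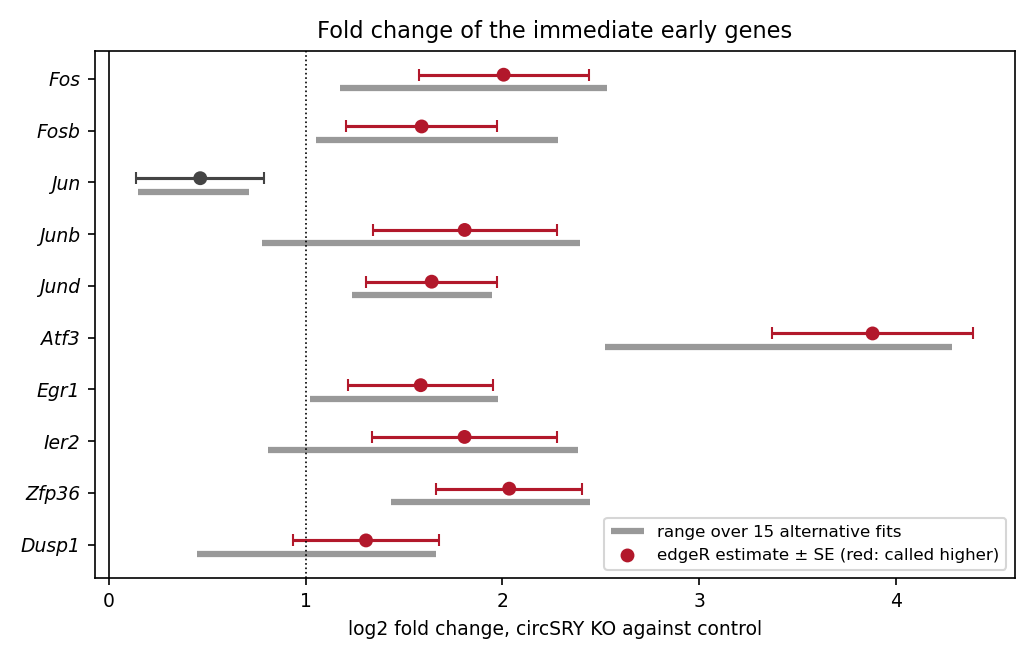
log2 fold change of each immediate early gene in circSRY KO against control, with error bars of 1 standard error from edgeR (red where called higher) and grey lines for the range over 15 alternative fits, the dotted line being the threshold of 1. All values are above 0, from 0.47 for Jun to 3.88 for Atf3, and the ranges of Junb, Ier2 and Dusp1 cross the threshold.

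The 2 libraries of a group differed in these genes. In circSRY KO, 9 of 10 members had more CPM in replicate 1 than in replicate 2, against 48.4% of tested genes. The ratio was 3.08 for Junb, 2.99 for Ier2 and 2.55 for Fos, and between 1.48 and 2.03 for Jun, Jund, Dusp1, Egr1, Atf3 and Zfp36. Fosb, at 0.977, did not follow the other members. In the control, 10 of 10 members were higher in replicate 2 than in replicate 3, against 57.8% of tested genes, with ratios of 2.41 for Fosb, 2.01 for Junb and 2.00 for Fos. Atf3, Dusp1 and Jund, at 1.05, 1.06 and 1.12, were nearly level between the control libraries.

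**Figure D3:**
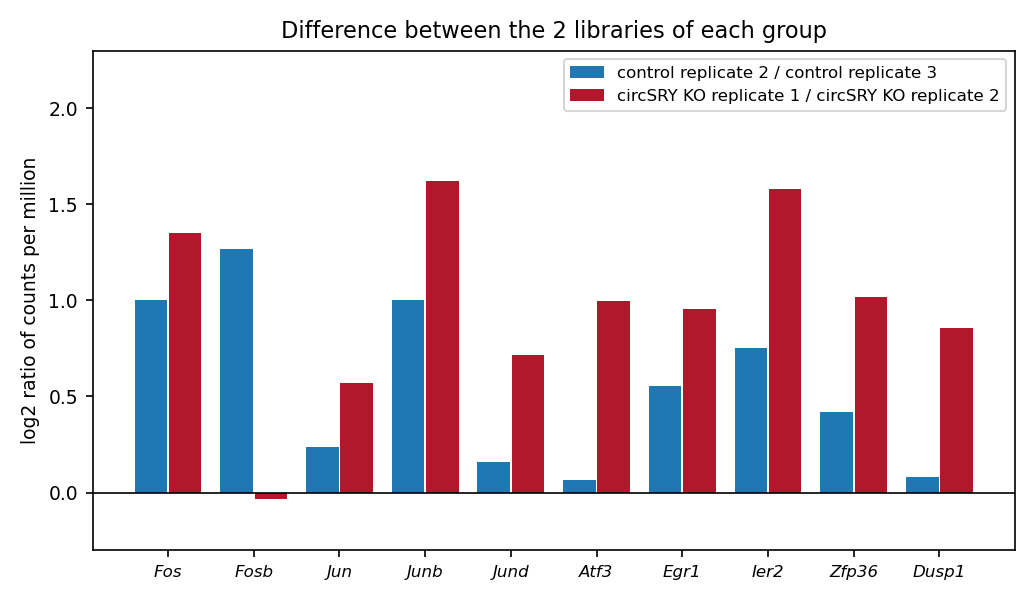
log2 ratio of CPM between the 2 libraries of each group, for each immediate early gene (circSRY KO replicate 1 over replicate 2, and control replicate 2 over replicate 3). All 10 control bars and 9 of the 10 circSRY KO bars lie above 0, with the ratio largest for Junb in circSRY KO (3.08) and for Fosb in the control (2.41).

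Leaving out 1 library at a time moved the calls of these genes. Without control replicate 3, the library with the lowest CPM of all 10 members, 4 genes were called higher (Fos, Jund, Atf3 and Zfp36), where 10.1% of tested genes were. Without control replicate 2, 8 were called higher, and 6.48% of tested genes were. Without circSRY KO replicate 1, in which most members were highest, 6 were called higher, and 22.0% of tested genes were. In that fit Junb and Ier2 had log2 fold changes of 0.78 and 0.81, against 1.81 each with all 4 libraries. Without circSRY KO replicate 2, 9 were called higher, against 18.7% of tested genes. With 1 library left in a group, its spread was assumed to equal that of the other group. Fos, Jund, Atf3 and Zfp36 were called in all 15 alternative fits, Egr1 in 14, Junb in 13, Fosb in 12, Ier2 in 11 and Dusp1 in 8. With effective length as an offset 8 members were called (16.5% of tested genes), and with limma on log2(TPM + 1) 6 were (12.5%).

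Other immediate early genes rose in part. Of 42 tested genes on a list of other immediate early genes, 17 rose, 1 fell and 24 did not pass. Their median log2 fold change was 1.06, and 20.0% of all tested genes rose and 15.0% fell. Of the 42, 3 (Egr2, Myc and Plk3) passed the filter only through circSRY KO. Id1, Id2, Ier3 and Sgk1 had only 1 control library above the filter's minimum, and the filter needs 2 libraries. These genes too were tested through circSRY KO libraries, and all but Sgk1 were among the 17. Of the list, 9 genes also stand on another list below, and it gave 11 and 9 genes called higher without control replicates 2 and 3. Ccn2, a matrix-associated growth regulator, went from 5.55 and 3.30 TPM in the control to 18.4 and 36.1 TPM in circSRY KO (log2 fold change 2.76, edgeR adjusted p = 0.000224). Nr4a1, an orphan nuclear receptor, went from 10.1 and 15.4 to 29.7 and 40.9 TPM (1.72, edgeR adjusted p = 0.00152). Both were higher in circSRY KO replicate 2 than in replicate 1, unlike most of the 10 members. Hes1, a repressor downstream of Notch, and Klf6, a zinc finger factor, rose by log2 fold changes of 2.40 and 2.07 (edgeR adjusted p = 0.00164 and 0.00220).

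Against 20.0% higher and 15.0% lower of all tested genes, other leucine zipper genes related to AP-1 gave 3 higher and 1 lower of 11 tested. Among them Maf (log2 fold change 2.83) and Nfe2l2 (1.06) rose, and Atf7 fell by 1.09 on the log2 scale (edgeR adjusted p = 0.0460). Without control replicate 2 or 3 the count was 2 higher and 0 lower. Maf is a regulator of macrophages among other cells, and Nfe2l2 of the oxidative stress response. Maf had only 1 control library above the filter's minimum and also needed a circSRY KO library to pass. The upstream regulators SRF, the ternary complex factors and CREB relatives gave 0 higher and 0 lower of 10 tested by edgeR, with 1 at an unadjusted p under 0.05 and a median of -0.26, and 2 were lower without circSRY KO replicate 2. Of these, Srf was at 34.2 and 44.8 TPM in the control and at 55.4 and 67.3 TPM in circSRY KO (log2 fold change 0.68, edgeR adjusted p = 0.0911), and Atf1 was at 303 and 232 and at 221 and 263 TPM (-0.22, edgeR adjusted p = 0.597). A list of MAP kinases also held their activating kinases and kinases downstream of them (Rps6ka and Mapkapk genes). Of its 21 tested genes, 1 rose and 2 fell, where 20.0% of all tested genes rose and 15.0% fell. The downstream kinase Mapkapk3 rose (edgeR adjusted p = 0.0250), and Map2k5 (-1.04) and Mapk7 (-1.19) fell. Mapkapk3 passed the filter only through circSRY KO. The counts higher and lower were 0 and 0 without control replicate 2, 0 and 1 without control replicate 3 or without circSRY KO replicate 2, and 3 and 2 without circSRY KO replicate 1.

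Of 9 tested MAP kinase phosphatases related to Dusp1, 5 rose and 0 fell, against 20.0% and 15.0% of all tested genes. Their median log2 fold change was 1.31. Of the 5 that rose, Dusp2 and Dusp6 had only 1 control library above the filter's minimum and also needed a circSRY KO library to pass. Dusp10, which acts on the stress kinases JNK and p38, went from 5.27 and 8.26 TPM to 13.1 and 19.1 TPM (log2 fold change 1.67, edgeR adjusted p = 0.00280). Dusp6, Dusp4 and Dusp5, which act on ERK, rose by 2.04, 1.31 and 1.53. This count was 1 without control replicate 2 and 3 without control replicate 3, and limma gave 1 on log2(TPM + 1) and 0 on log2(TPM + 0.1). The EGR family with its corepressors gave 1 higher and 1 lower of 5, against 20.0% and 15.0% of all tested genes. Egr2 went from 0.32 and 0.13 TPM to 2.61 and 1.28 TPM (2.84, edgeR adjusted p = 0.00617), and Egr4 fell from 22.0 and 18.8 TPM to 7.18 and 5.02 TPM (-1.45, edgeR adjusted p = 0.00731). Egr4 is known for its role in male germ cell development. Egr2 passed the filter only through circSRY KO. Leaving out control replicate 3 ended the call of Egr2, and leaving out control replicate 2 that of Egr4. Without circSRY KO replicate 1, 3 of the 5 were higher.

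Of the genes for relatives of ZFP36 and its partners in mRNA decay, more fell than rose. Of 15 tested relatives and decay factors, 1 rose (Zfp36l1, 1.04) and 6 fell, against 20.0% and 15.0% of all tested genes. The list's median log2 fold change was -0.81. Khsrp, another binder of AU-rich elements, fell from 99.1 and 70.0 TPM in the control to 13.6 and 20.7 TPM in circSRY KO (log2 fold change -2.15, edgeR adjusted p = 0.000271). Hnrnpd, another element binder, fell by 1.34 on the log2 scale, and Cnot3, a subunit of the CCR4-NOT deadenylase, and Dcp1a, a decapping cofactor, also fell (edgeR adjusted p = 0.00612 and 0.00775). Without control replicate 2, 1 gene of this list fell, and 0 rose without control replicate 2, control replicate 3 or circSRY KO replicate 2. Of 11 cytokine and other mRNAs known to be destabilized by ZFP36, 6 passed the filter and all 6 rose, and Csf2 and Il6 were at 0 in all 4 libraries. The inflammatory cytokine Il1b went from 5.19 and 2.69 to 28.3 and 17.5 TPM (log2 fold change 3.76, edgeR adjusted p = 0.000121). Tnf was at 0 in both controls and had 20 and 13 expected counts in circSRY KO, at least 5.28-fold higher against a floor of 3 counts per library. On the same floor the chemokine Ccl2 (25 and 11 counts) was at least 5.72-fold higher, and Cxcl2, another chemokine, had 16 and 27 counts against 0. These 3 genes and Ccl3 passed the filter only through circSRY KO and so had to be higher. Il1b and Ier3 had only 1 control library above the filter's minimum, so they also needed a circSRY KO library to pass. The count of 6 is a description. The chemokine Ccl3 was at 1.48 and 0 TPM in the control and at 18.8 and 36.3 TPM in circSRY KO. The genes counted here as the IER family include Ier3ip1, which is named for its interaction with IER3 and is not itself a family gene. They are read against the same shares of all tested genes. Of 4 genes of the IER family other than Ier2, 1 rose (Ier3, log2 fold change 1.84, edgeR adjusted p = 0.0151) and 0 fell, and without control replicate 3, 0 were called.

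**Figure D4:**
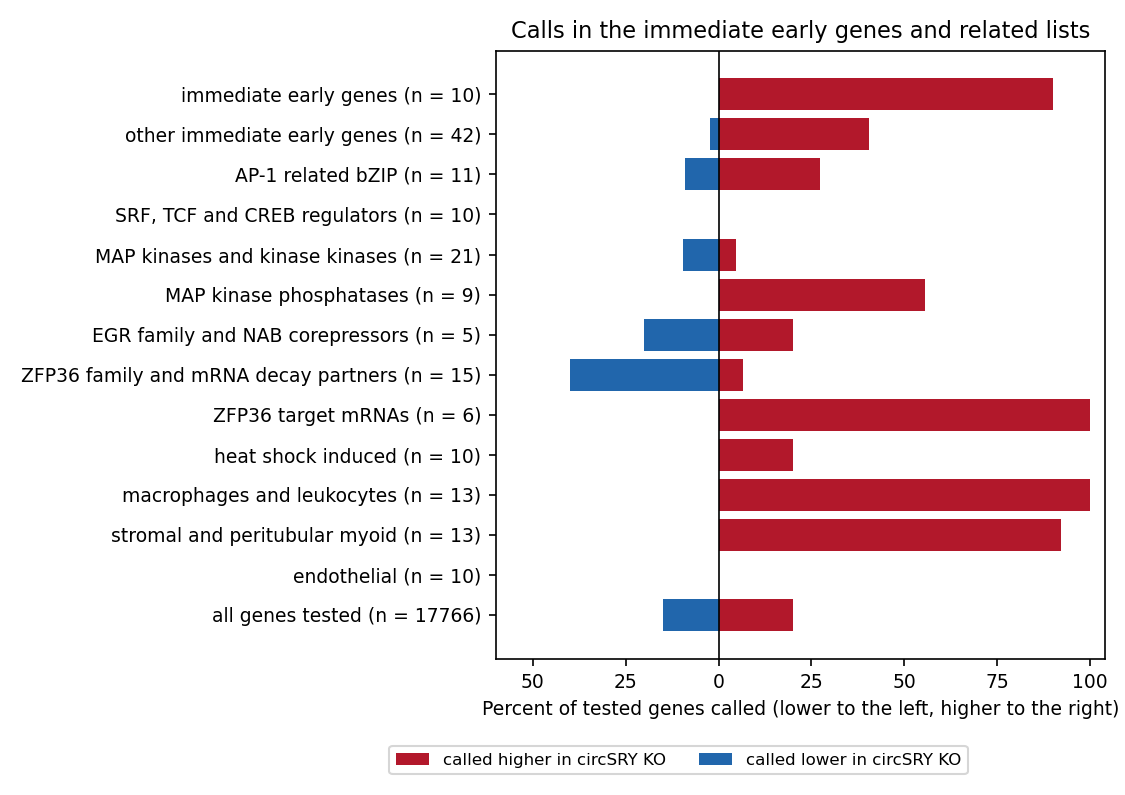
Percent of the tested genes of each list that edgeR called higher (to the right) or lower (to the left) in circSRY KO, with the number tested in parentheses. The immediate early genes reach 90% higher against 20.0% of all genes tested. The SRF, ternary complex factor and CREB regulators and the endothelial markers have no bar.

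Most markers of leukocytes, stroma and Sertoli cells rose like the members, while Leydig markers fell and edgeR called no endothelial marker. In the same fit 20.0% of all tested genes rose and 15.0% fell. Of 13 markers of macrophages and leukocytes, 13 rose, and their summed level was 29.0 and 25.9 TPM in the control and 472 and 347 TPM in circSRY KO. Of these 13, 8 (Lyz2 among them) were under the filter's minimum in both controls, passed only through circSRY KO and so had to be higher, and the 5 others rose too. Lyz2, the lysozyme of myeloid cells, went from 1.44 and 1.17 to 77.4 and 38.9 TPM, and Cd74, the chain that guides MHC class II, from 9.54 and 8.47 to 199 and 167 TPM. Of 13 stromal and peritubular myoid markers, 12 rose, with sums of 250 and 187 TPM in the control and 613 and 702 TPM in circSRY KO. The count was 7 without control replicate 2 and 7 without control replicate 3. Of 9 tested Sertoli markers, 7 rose, with sums of 87.8 and 63.0 against 201 and 424 TPM, but 3 of the 9 (Sox9, Cst9 and Cst12) passed the filter only through circSRY KO, and 4 of the 6 others rose. Of 8 Leydig markers, 8 fell, from sums of 1901 and 1607 to 681 and 622 TPM, and 3 and 4 fell without control replicates 2 and 3. Of 10 endothelial markers by edgeR, 0 rose and 0 fell, 0 were at an unadjusted p under 0.05 and limma on log2(TPM + 1) called 1 higher, with sums of 47.0 to 61.4 TPM in the 4 libraries. No marker of these lists was at 0 in all 4 libraries. Between circSRY KO replicates 1 and 2 the ratio of summed TPM was 1.54 for the 10 immediate early genes, 1.36 for the leukocyte markers, 0.873 for the stromal markers and 0.473 for the Sertoli markers. The part of these cells in the change of the immediate early genes was not tested.

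Germ cell markers also differed between the groups, where 20.0% of all tested genes rose and 15.0% fell. Of 12 leptotene and zygotene markers, 9 fell, with sums of 1269 and 891 TPM in the control and 297 and 242 TPM in circSRY KO, and Sycp3, an axial element of the synaptonemal complex, fell by 1.72 on the log2 scale. Of 11 markers of elongating spermatids, 10 rose, from sums of 9714 and 9573 to 53775 and 44590 TPM. Of 12 pachytene and diplotene markers, 2 rose and 4 fell, and their sum was 12228 and 13201 TPM in the control and 8796 and 9555 TPM in circSRY KO. Without control replicate 2, 0 of them rose and 3 fell. Piwil1, which encodes a PIWI protein of the piRNA pathway, went from 644 and 468 TPM to 17.2 and 31.1 TPM. Tesmin and Pou5f2 also fell, by 2.74 and 3.18 on the log2 scale. Pgk2 and Spag6 rose, by 1.66 and 1.34 (edgeR adjusted p = 0.00265 and 0.0120). Piwil1, Tesmin, Pou5f2, Pgk2 and Spag6 were named after their values were seen. Ybx2, a germ cell RNA-binding protein, was at 3636 and 3658 TPM in the control and at 1922 and 1745 TPM in circSRY KO without passing the test (log2 fold change -0.84, edgeR adjusted p = 0.0821), and Ldhc, the lactate dehydrogenase of spermatocytes and spermatids, was at 4921 and 5812 TPM in the control and 4581 and 4863 TPM in circSRY KO. Markers of the labelled cell type were thus detected in every library, several of them at lower and some at higher levels in circSRY KO. Of 12 round spermatid markers 9 rose and 1 fell, with 2 higher without control replicate 2. Of 12 spermatogonial markers 5 rose and 1 fell, with 2 and 1 higher without control replicates 2 and 3. Of 13 mitochondrially encoded genes 0 rose and 2 fell by edgeR, with 6 at an unadjusted p under 0.05, and their sum was 47903 and 27627 TPM in the control and 15303 and 23484 TPM in circSRY KO. The number that fell was 0 without control replicate 2, 5 without control replicate 3, 6 without circSRY KO replicate 2, and 7 with the length offset or with limma on log2(TPM + 1). The summed level of 10 heat shock genes was 2553 and 2345 TPM in the control and 1497 and 1835 TPM in circSRY KO. Most of it was Hsp90aa1, which was not called, at 1928 and 1755 TPM in the control and 957 and 1311 TPM in circSRY KO. Where 20.0% of all tested genes rose and 15.0% fell, 2 of the 10 heat shock genes rose (Hspa1a, 1.90, and Hspb1, 1.24) and 0 fell. Without control replicate 3, 0 of these were called, and without control replicate 2, 1 was. The mean effective length of a transcript, which falls where libraries hold shorter transcripts, was 1553 and 1485 bases in the control and 1145 and 1438 bases in circSRY KO, lowest in the library where most members were highest. The part of cell composition, of mitochondrial transcripts and of transcript length in these values was not tested.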

How the data were processed

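Primary spermatocytes sorted with Hoechst were sequenced as 2 control and 2 circSRY KO libraries, which were grouped by their labels. Libraries were made with a TruSeq RNA kit. The authors aligned reads to GRCm39 with STAR 2.7.0f and estimated expression with RSEM 1.3.2. The submitters' notes also list mm9, and no source used here gives the annotation release. Per gene, the authors deposited expected counts as unnormalized estimates. From the same RSEM run come the authors' deposited TPM and FPKM, which are scaled for the length of transcripts and for depth. The authors' table of their comparison holds a log2 fold change, a mean log2 CPM, a likelihood ratio, a p-value and an FDR per gene, and none of these was used. A further sheet of TPM with 4 columns was not used.

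Expected counts were rounded. The test was edgeR 4.0.16 in R 4.3.3 (filterByExpr, TMM, quasi-likelihood test, Benjamini-Hochberg adjustment over 17766 genes, common dispersion 0.0685). Genes were called at an FDR below 0.05 with a log2 fold change of 1 or more in either direction, as in the study's methods. The SE was derived from the F statistic. The filter needed 2 libraries above its minimum of 1.20 CPM. Genes said to pass only through circSRY KO had both control libraries under it. Genes with only 1 control library above it are not in those counts. The test was checked on simulated data. Alternatives used other normalizations, filters and tests (DESeq2 1.42.0, limma 3.58.1), log2 of TPM or FPKM with a pseudocount, an effective length offset (missing lengths imputed by the gene's geometric mean) and each library left out. The length offset, FPKM and library size settings were chosen after seeing the data.

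The members and lists were chosen with earlier results of these data known. Named were all members, up to 4 called genes of each pathway or family list by adjusted p (the 2 of highest mean TPM where 0 were called), and up to 2 genes of each marker list by mean TPM. Zfp36l1, Ccl2, Hsp90aa1, Ier3ip1, Piwil1, Tesmin, Pou5f2, Pgk2 and Spag6 were named after their values were seen. So were the genes listed as needing circSRY KO libraries to pass the filter. Some genes that the rule names are not printed. Promoters are from RefSeq (GRCm38.p6) and 3' UTRs from GENCODE M39 (GRCm39). No protein table was used here.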

Additional observations from a re-analysis of the deposited data

How the results depend on the processing

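Direction was the same for all 10 members in every alternative fit. Over 15 fits and 10 members, 133 values kept their side of the threshold, 17 lost the call and 0 reversed. With each library left out in turn, the number of members called higher ranged from 4 to 9, and it was 4 without control replicate 3. It was 8 with the length offset or log2(FPKM + 1) and 6 with log2(TPM + 1) or log2(TPM + 0.1). The genes lost with TPM were Fosb, Ier2 and Dusp1, where Dusp1 has the uneven effective length. The median log2 fold change of all tested genes was 0.07 with TMM and -0.13 with limma on log2(TPM + 1), while upper-quartile scaling gave 0.28, and the share of calls that were higher was 57.1%, 43.9% and 69.2%. Jun stayed under the threshold on fold change in every fit, with at most 0.71, and without circSRY KO replicate 2 its adjusted p by edgeR was 0.0370. No paired analysis was possible because the groups share only 1 replicate number.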

Other observations

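The makeup of the JUN and FOS families differed between libraries by TPM. The summed JUN family (Jun, Junb and Jund) was at 85.3 and 67.8 TPM in the control and at 213 and 147 TPM in circSRY KO. Jund made up 63.3% and 68.8% of it in the control and 68.8% and 75.9% in circSRY KO, while Jun made up 17.0% and 17.4% and then 7.67% and 9.41%, without overlap. The summed FOS family (Fos, Fosb, Fosl1 and Fosl2) was at 36.2 and 16.3 TPM and at 79.4 and 55.7 TPM, and Fos made up 53.1% to 76.3% of it with the groups overlapping. These shares are descriptions of 2 libraries a group, with no test.

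Of the 10 members, 4 (Jun, Junb, Jund and Ier2) have a single exon, against 2.97% of 14579 tested protein-coding genes. By TPM, Jund ranked 1 of the 10 genes in every library and Atf3 ranked 10 in all but circSRY KO replicate 1, where Fosb did. Several genes between them were within each other's spread: in the control, Fos, Junb, Jun and Dusp1 had means of 13.1 to 16.2 TPM with overlapping libraries.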
